A study of Mus musculus with 9 samples.

Results

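The Ly6 family genes were taken as every gene in the 3 deposited tables whose symbol begins with Ly6 followed by a letter from a to k. The rule found 6 genes among the 2810 different genes listed: Ly6a, which encodes Sca-1, and Ly6a2, Ly6c2, Ly6d, Ly6g6e and Ly6g6f. RefSeq GRCm38.p6 holds 19 protein-coding mouse genes with such symbols, of which the other 13 have no row and were not used here. All cells came from the bone marrow of C57BL/6J mice 8 weeks old. M-EPCs came from males, F-EPCs from females with ovaries and OVX-EPCs from females ovariectomized at around day 35, and each group had 3 RNA-seq libraries. In every group, lineage-depleted marrow cells were sorted magnetically for Sca-1 and then for CD31, and the endothelial progenitor cells (EPCs) were grown in EGM-2, an endothelial growth medium. How many mice stand behind a library, and whether mice were pooled, is not given in the sources used here, so p-values measure only the spread between libraries, which may be technical in part. The methods name biological replicates in the account of the sequencing analysis.

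Ly6 proteins are small cell-surface proteins whose fold is a set of loops held by disulfide bonds, and most are held in the outer membrane by a glycosylphosphatidylinositol (GPI) anchor. Sca-1 marks mouse hematopoietic stem and progenitor cells, is also found on many endothelial cells, and is induced by interferons. Other members mark particular blood lineages in the marrow, such as Ly6C on monocytes and Ly6D on lymphoid progenitors committed to the B lineage.

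Within the family, the 6 listed genes were of 2 genomic clusters. Positions here are those of GRCm38, the assembly also called mm10. The chromosome 15 cluster holds 13 of the 19 genes, and 4 of these were listed: Ly6d at chr15:74762056-74763567, Ly6a at chr15:74994877-74998031, Ly6c2 at chr15:75108161-75112066 and Ly6a2 at chr15:75131292-75135128, all on the minus strand. The chromosome 17 cluster lies in the major histocompatibility complex and holds 6 genes, of which Ly6g6e (chr17:35076868-35078804, plus strand) and Ly6g6f (chr17:35080538-35085595, minus strand) were listed. GENCODE vM21 names Ly6a2 as I830127L07Rik, a transcribed unprocessed pseudogene, whereas RefSeq counts it as protein coding.

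**Figure D1:**
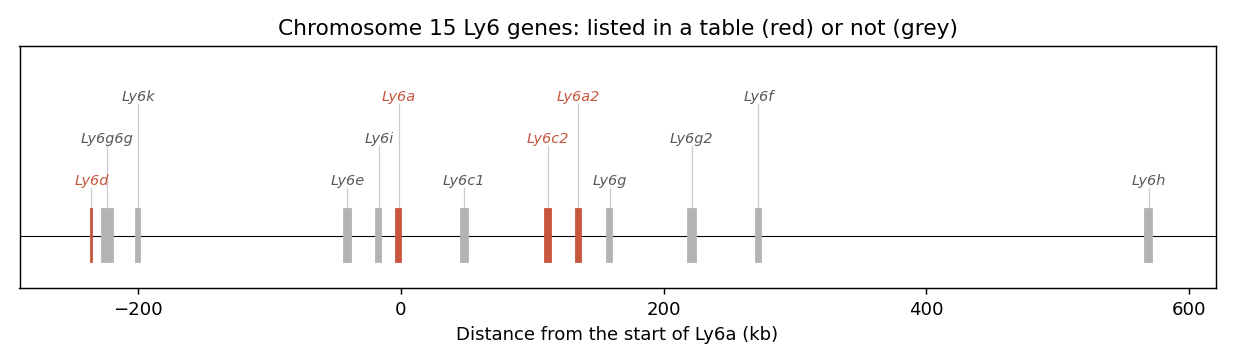
Map of the 13 Ly6 family genes on chromosome 15, with the distance from the start of Ly6a in kb on the x axis. Red bars are the 4 genes listed in at least 1 table and grey bars the genes with no row; Ly6c2 and Ly6a2 lie next to each other, with no other family gene between them.

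Ly6a2 and Ly6c2 are neighbours, and the sequences at their starts are shown because these nearly identical stretches belong to genes that differed in their order over the groups. Each is the RefSeq GRCm38.p6 sequence from 250 bases before to 50 bases after a transcript start, 5′ to 3′ on the minus strand, at chr15:75135079-75135378 for Ly6a2 and chr15:75111922-75112221 for Ly6c2. For Ly6c2 the table gave 2 overlapping windows for different transcript starts, and the more upstream is shown. Capitals mark the bases that differ between them or have no partner in a global alignment.
Ly6a2: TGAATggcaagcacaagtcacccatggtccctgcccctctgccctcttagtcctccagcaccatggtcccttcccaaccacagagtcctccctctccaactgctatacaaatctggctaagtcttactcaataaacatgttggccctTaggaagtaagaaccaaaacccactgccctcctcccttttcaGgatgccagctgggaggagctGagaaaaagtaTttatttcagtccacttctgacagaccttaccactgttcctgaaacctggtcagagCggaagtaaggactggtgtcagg
Ly6c2: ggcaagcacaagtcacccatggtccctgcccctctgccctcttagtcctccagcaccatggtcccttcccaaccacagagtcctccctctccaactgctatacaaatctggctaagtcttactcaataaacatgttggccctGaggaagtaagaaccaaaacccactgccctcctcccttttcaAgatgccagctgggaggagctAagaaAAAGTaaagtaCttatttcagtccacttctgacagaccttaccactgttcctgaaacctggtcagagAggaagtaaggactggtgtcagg
Of the 305 columns of the alignment, 290 were identical (95.1%), 5 held different bases and 10 were gaps. The window of Ly6g6f was 45.5% identical to that of Ly6a2. A table of promoters held these 3 members, and all their windows were searched on both strands. Neither TTCNNNGAA, the core of the gamma-activated site of interferon-gamma signalling, nor GAAANNGAA, a core of interferon-stimulated response elements, occurred in any of them. Among all 32851 promoter windows of that length in the same table, 8.3% held the first and 8.56% the second. Most windows thus lacked each motif. Ly6a, Ly6d and Ly6g6e had no window there and were not searched.

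Each table compared a pair of groups and listed only genes past the authors' screen for a fold change of at least 2 at an FDR of 0.05. There were 2093 genes for M-EPCs against F-EPCs, 1317 for M-EPCs against OVX-EPCs and 811 for F-EPCs against OVX-EPCs. Values are normalized counts, which are the reads of a library over its size factor, and whole reads were recovered from all of them. The listed genes held 454298 to 2070442 reads per library, and the size factors ran from 0.819 to 1.11. Calls required an adjusted p under 0.05 and a log2 fold change of 1 or more in size, in limma on log2(normalized count + 1). Since each gene was listed for differing in these same libraries, nearly every listed gene was called: 97.6% for M-EPCs against F-EPCs, 98.8% for M-EPCs against OVX-EPCs and 98.2% for F-EPCs against OVX-EPCs. The libraries of both groups did not overlap for 98.3%, 99.2% and 98.9% of listed genes. An exact permutation test, two-sided, cannot go below p = 0.1 with 3 libraries against 3, and all 11 listed comparisons of family genes reached that smallest value. Fewer cells of a type and less RNA per cell cannot be told apart in these bulk samples.

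Ly6a was highest in F-EPCs and lower in both M-EPCs and OVX-EPCs. On a scale common to all 9 libraries, its normalized counts were 544, 587 and 595 in F-EPCs. They were 293, 280 and 203 in M-EPCs and 201, 240 and 254 in OVX-EPCs. On this scale, set by the authors' size factors, all F-EPC libraries stood above all others, while those of M-EPCs and OVX-EPCs overlapped. In the M-EPC versus F-EPC table the means were 258.9 ± 48.6 and 575.5 ± 27.3 (SD, n = 3), a log2 fold change of -1.17 (SE 0.17, adjusted p = 0.0013 by limma). In the F-EPC versus OVX-EPC table they were 596.8 ± 28.3 and 240.6 ± 28.6 (SD, n = 3), a log2 fold change of 1.31 (SE 0.14, adjusted p = 4.6e-04 by limma). With edgeR or DESeq2 and size factors set on the listed genes alone the latter was 2.44, while M-EPCs against F-EPCs were at -1.05 to -1.50. F-EPCs were then further from OVX-EPCs than from M-EPCs, and the overlap of the latter groups was not computed with those factors. Ly6a had no row between M-EPCs and OVX-EPCs, whose means on the common scale were 258.9 and 231.7. M-EPC replicate 3 was the lowest of its group, and without it the log2 fold change against F-EPCs was -1.002. Of the stretches of 50 bases in Ly6a transcripts, 15% also occur in transcripts of Ly6c1, which has no row, so some reads could belong to either gene.

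Ly6a2, next to Ly6c2 on the chromosome, had the same order of groups at a far lower level. Its reads were 9, 11 and 10 in F-EPCs, 0, 1 and 1 in M-EPCs, and 1, 0 and 0 in OVX-EPCs. Each F-EPC library lay above every library of the other groups, which were all at or under 1 read. The pooled reads were 14.6 times as many in F-EPCs as in M-EPCs per unit of size factor (95% interval 3.71 to 126, counting error only). Against OVX-EPCs the ratio was 31.2, with an interval of 5.18 to 1271. On the log2 scale with 1 added, which understates changes of low genes, limma gave -2.74 (SE 0.32, adjusted p = 5.7e-04) for M-EPCs against F-EPCs. For F-EPCs against OVX-EPCs it gave 3.14 (SE 0.30, adjusted p = 3.5e-04). A run of 69 bases is identical between transcripts of Ly6a2 and Ly6a, though only 2.49% of the 50-base stretches of Ly6a2 occur in Ly6a.

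Ly6c2, one of a pair of genes for the monocyte antigen Ly6C, was high in F-EPCs and OVX-EPCs and low in M-EPCs. It had 153, 149 and 168 reads in F-EPCs, 98, 137 and 105 in OVX-EPCs, and 4, 16 and 3 in M-EPCs. M-EPC libraries stood apart from all 6 others, and replicate 2 held most of their reads. In the M-EPC versus F-EPC table the means were 7.25 ± 6.16 and 152.7 ± 7.64 (SD, n = 3), a log2 fold change of -4.46 (SE 0.50, adjusted p = 5.1e-04 by limma). In the M-EPC versus OVX-EPC table they were 7.42 ± 6.30 and 108.3 ± 18.4 (SD, n = 3), a log2 fold change of -3.93 (SE 0.51, adjusted p = 7.4e-04 by limma). Ly6c2 had no row between F-EPCs and OVX-EPCs. On the common scale F-EPCs were at 144.3 to 159.2 and OVX-EPCs at 92.5 to 126.4, which did not overlap and gave a ratio of means of 1.44, with no test. Per kb of exon, F-EPCs and OVX-EPCs were at 12.2 and 0.394 normalized counts for Ly6a2 and at 55.7 and 38.7 for Ly6c2. The difference between the genes was not tested. The closeness of F-EPCs and OVX-EPCs in Ly6c2 depends on the size factors: M-EPCs were at -4.22 against F-EPCs and -3.59 against OVX-EPCs with TMM, but at -4.69 and -3.18 with DESeq2's own. Of the 50-base stretches of Ly6c2 transcripts, 13.9% also occur in Ly6c1, with an identical run of 188 bases, and the split of reads between both is uncertain.

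Ly6d, a GPI-anchored antigen of lymphoid progenitors and keratinocytes, was lower in M-EPCs than in either other group. Its reads were 6, 0 and 0 in M-EPCs, 20, 22 and 25 in F-EPCs, and 40, 41 and 42 in OVX-EPCs. The 3 groups did not overlap in reads, and all M-EPC reads came from replicate 1. The log2 fold change of M-EPCs was -3.59 (SE 0.80, adjusted p = 0.0068 by limma) against F-EPCs and -4.41 (SE 0.78, adjusted p = 0.00248 by limma) against OVX-EPCs. Without M-EPC replicate 1 the remaining M-EPC libraries were at 0, and the fitted values moved to -4.50 and -5.33. On the common scale, with no test, OVX-EPCs at 38.4 ± 1.10 were 1.77 times F-EPCs at 21.7 ± 1.79 (SD, n = 3). That order depends on the size factors and was read only through M-EPCs. With TMM factors set on the listed genes, M-EPCs were at -3.28 against F-EPCs and -3.99 against OVX-EPCs, which keeps it. With RLE factors M-EPCs were at -3.72 and -3.58 and with DESeq2's own at -3.82 and -3.66, which turns it. Between F-EPCs and OVX-EPCs, where Ly6d had no row, TMM factors shifted the median gene by 1.13 towards F-EPCs. A direct order of Ly6d with such factors was not computed.

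Ly6g6f differs from the rest of the family in kind: it encodes a transmembrane protein with an immunoglobulin domain that is found on platelets. Reads were 114, 116 and 117 in F-EPCs, 134, 120 and 169 in OVX-EPCs, and 4, 0 and 7 in M-EPCs. F-EPC and OVX-EPC libraries overlapped on the common scale, which rests on the authors' size factors, and all lay far above M-EPCs. The log2 fold change of M-EPCs was -5.00 (SE 0.83, adjusted p = 0.00225 by limma) against F-EPCs and -5.22 (SE 0.83, adjusted p = 0.00158 by limma) against OVX-EPCs. With TMM factors set on the listed genes these were -4.79 and -4.91, in the same order, and with DESeq2's own they were -5.27 and -4.52, in the opposite order. Without M-EPC replicate 2, which had 0 reads, they became -4.08 and -4.30, and without replicate 3 they were -5.70 and -5.93.

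Ly6g6e, a small gene of the chromosome 17 cluster, was the one member higher in M-EPCs. It had 22, 12 and 15 reads in M-EPCs and 8, 3 and 1 in OVX-EPCs, so the groups did not overlap although both were low. The log2 fold change was 2.10 (SE 0.58, adjusted p = 0.0132 by limma), and with 1 OVX-EPC or M-EPC library left out it lay between 1.59 and 2.66. Its table does not hold F-EPCs, and no F-EPC value was analysed here. Ly6g6d, which has no row, overlaps both Ly6g6e, on the other strand, and Ly6g6f, on the same strand. Per the methods the libraries were made with a directional kit, which keeps the strand, but whether reads were counted by strand is not given in the sources used here. Reads from the overlap of Ly6g6f with Ly6g6d could belong to either gene, and so could those of Ly6g6e if strand was not used.

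**Figure D2:**
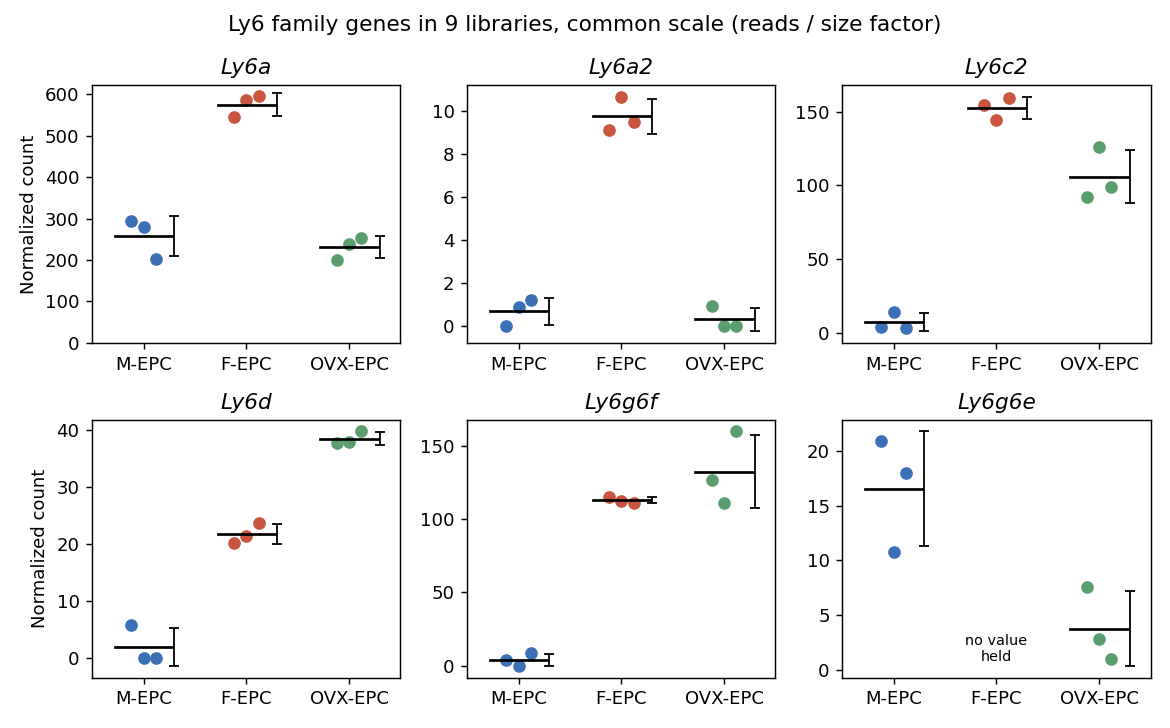
Normalized counts (y axis, reads over the size factor, scale common to all libraries) of the 6 Ly6 family genes in the 3 groups. Points are libraries, horizontal lines group means and error bars the SD (n = 3); Ly6a and Ly6a2 are high in F-EPCs alone, Ly6c2, Ly6d and Ly6g6f are low in M-EPCs, and Ly6g6e has no F-EPC value.

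By the authors' size factors, Ly6a and Ly6a2 were thus high in F-EPCs alone, and Ly6c2, Ly6d and Ly6g6f were low in M-EPCs. Ly6g6e was higher in M-EPCs than in OVX-EPCs, and with no F-EPC value its order over the 3 groups is unknown. Of the 5 listed between M-EPCs and F-EPCs, all 5 were lower in M-EPCs, where 49.3% of the 2093 listed genes were called lower. Their median log2 fold change was -3.59, and that of all listed genes was -0.99. Listed genes passed a fold screen in either direction, so medians over all of them depend on how many went each way. Of the 4 listed between M-EPCs and OVX-EPCs, 3 were lower in M-EPCs, against 58.0% of listed genes, and 1 was higher, against 40.8%. The median of these members was -4.17 and that of all listed genes -1.26. Both members listed between F-EPCs and OVX-EPCs were higher in F-EPCs, against 30.8% of listed genes. These tables share libraries, so the comparisons are not independent of each other.

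**Figure D3:**
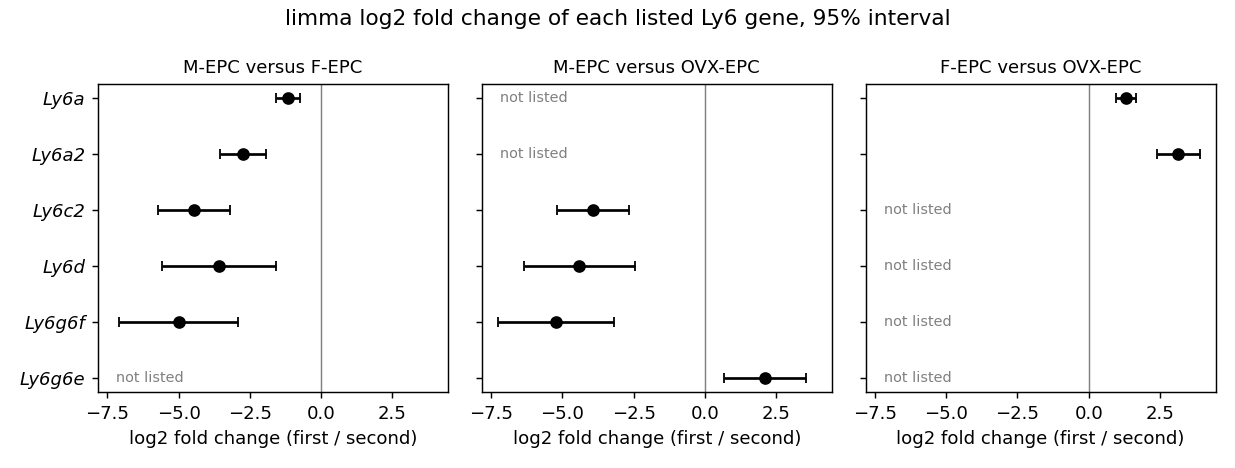
The log2 fold change (x axis, first group over second, limma on log2 of the normalized count plus 1) of each Ly6 family gene (y axis) in the 3 comparisons, with 95% intervals as bars. No interval includes 0; the 5 genes listed for M-EPCs against F-EPCs lie on the negative side, and Ly6g6e lies on the positive side for M-EPCs against OVX-EPCs.

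Per kb of exon, which allows levels to be compared between genes, Ly6a was the most abundant member in each group. In F-EPCs its normalized count per kb was 477.6 ± 22.7, followed by Ly6g6f at 98.8 ± 1.88, Ly6c2 at 55.7 ± 2.79, Ly6d at 29.2 ± 2.40 and Ly6a2 at 12.2 ± 1.02 (SD, n = 3). No neighbours in this order were within each other's SD. In OVX-EPCs Ly6a at 192.3 ± 22.9 was followed by Ly6g6f at 116.0 ± 21.9, and Ly6d at 51.7 ± 1.48 came before Ly6c2 at 38.7 ± 6.55 (SD, n = 3). In M-EPCs Ly6a stood at 214.8 ± 40.3 and Ly6g6e at 13.0 ± 4.10, while the other 4 lay between 0.875 and 3.56 with SDs that overlap (n = 3). Lengths were the merged exons of GENCODE vM21, which is not the authors' annotation.

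Both sorting markers were present in every library, and F-EPCs differed from the other groups in opposite directions for them. Pecam1, which encodes CD31, had M-EPC libraries at 489, 489 and 483 normalized counts, F-EPC libraries at 166, 156 and 151 and OVX-EPC libraries at 361, 374 and 357. Thus the F-EPC libraries, highest in Ly6a, were the lowest in Pecam1, and no groups overlapped in Pecam1. M-EPCs were above F-EPCs by 1.62 on the log2 scale (SE 0.09, adjusted p = 6.1e-05 by limma). F-EPCs were at -1.21 against OVX-EPCs (SE 0.11, adjusted p = 3.1e-04 by limma). The latter call is lost when size factors are set on the listed genes alone, which gives -0.08 to -0.09.

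**Figure D4:**
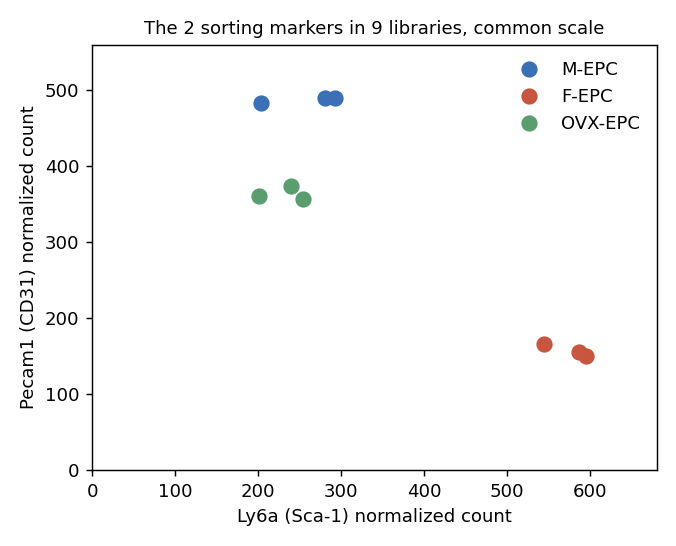
Normalized counts of Pecam1 (CD31, y axis) against Ly6a (Sca-1, x axis), 1 point per library, on the scale common to the 9 libraries. F-EPC libraries lie at the lower right, with Ly6a at 544 to 595 and Pecam1 at 151 to 166, apart from M-EPCs and OVX-EPCs at the upper left.

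Because Sca-1 is induced by interferons, Ly6a was set beside a list of 58 interferon-stimulated genes, of which 41 were in at least 1 table. Between F-EPCs and OVX-EPCs 31 were listed: 22 were higher in F-EPCs, as was Ly6a, and 9 were lower, where 30.8% of all listed genes were called higher and 67.3% lower. The higher genes included Irf7 (log2 fold change 1.89), which drives type I interferon production, the antiviral genes Oas3 (2.32) and Mx1 (1.92), and Ifitm3 (1.51). The 9 lower genes were Irf1, Ciita, Gbp2, Gbp3, Gbp4, Gbp5, Iigp1, Cxcl9 and Cxcl10, genes known to respond strongly to interferon-gamma. The directions of all 31 held with size factors set on the listed genes, but 7 of the 9 lower calls were then lost, leaving 2.

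In M-EPCs against F-EPCs most of the listed genes went opposite to Ly6a. All 9 of the genes that F-EPCs had below OVX-EPCs were also below M-EPCs there, with M-EPCs above F-EPCs by 5.59 for Cxcl9, 5.10 for Gbp4, 5.05 for Ciita and 4.95 for Gbp2 on the log2 scale. In all, 24 listed genes gave 19 higher and 5 lower in M-EPCs, and the 5 lower ones, Oas1g, Oasl1, Usp18, Ifi27l2a and Ifitm3, had the direction of Ly6a. All 5 were also among the 22 that F-EPCs had above OVX-EPCs. With TMM factors set on the listed genes, 3 of the 5 were called lower and 19 higher, and with RLE or DESeq2's own factors 5 were called lower and 16 higher. Over all listed genes 48.4% were called higher and 49.3% lower in M-EPCs. Against OVX-EPCs, all 33 listed interferon-stimulated genes were higher in M-EPCs, where 40.8% of all listed genes were, from Gbp4 at 3.04 to Dhx58 at 1.05 on the log2 scale, whereas Ly6a had no row there. Its libraries overlapped on the scale of the authors' size factors, with the limit given above. In the order of the tables above, the list medians were 2.24, 1.85 and 1.47, beside -0.99, -1.26 and -1.31 over all listed genes. Of 11 genes for interferons, their receptors and kinases, Ifng alone was listed, at a normalized count of 18.7 ± 0.543 in M-EPCs (SD, n = 3) and 0 in every F-EPC library.

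**Figure D5:**
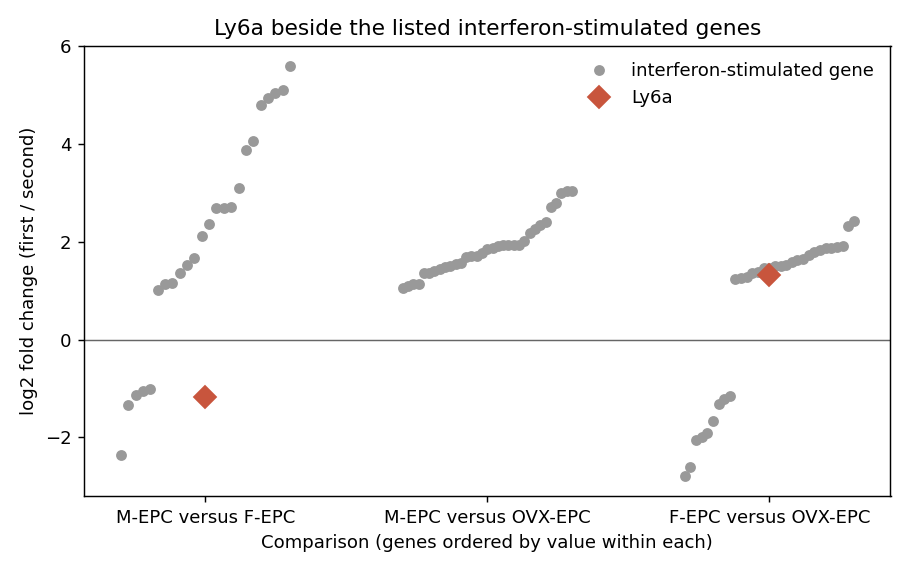
The log2 fold change (y axis, first group over second) of the listed interferon-stimulated genes (grey points, ordered by value) in the 3 comparisons on the x axis, with Ly6a as a red diamond. Ly6a is among the minority below 0 for M-EPCs against F-EPCs and among the majority above 0 for F-EPCs against OVX-EPCs, and is not listed for M-EPCs against OVX-EPCs.

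Few other genes with the Ly6 protein fold were listed, 3 of 43. Cd177, a neutrophil surface protein, moved as Ly6a did, at 20.7 ± 13.9 in F-EPCs against 0.617 ± 0.535 in M-EPCs (normalized counts, SD, n = 3; log2 fold change -3.47). F-EPCs were above OVX-EPCs by 2.78 on the log2 scale. Plaur, the urokinase receptor, was lower in M-EPCs against OVX-EPCs (-1.19), and Acvrl1, an endothelial receptor gene of the TGF-beta family, was higher in M-EPCs against F-EPCs (1.20). Neither of the latter calls held with DESeq2's own size factors or RLE factors set on the listed genes.

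Of 23 genes for GPI anchoring and for proteins that share membrane rafts with Sca-1, 8 were listed. Pgap1, which remodels the anchor, had a log2 fold change of 1.17 for M-EPCs against F-EPCs and -1.08 for F-EPCs against OVX-EPCs, and the kinase gene Src had 1.31 and -1.32. These directions are opposite to those of Ly6a. With size factors set on the listed genes, however, all 4 calls of the list between F-EPCs and OVX-EPCs were lost and 1 of the 4 changed sign. In M-EPCs against F-EPCs 3 of the list were higher and 2 lower, beside 48.4% and 49.3% of all listed genes. In M-EPCs against OVX-EPCs 1 was higher and 4 lower, and all 4 listed for F-EPCs against OVX-EPCs were lower. The last count stands beside 67.3% of all listed genes called lower, and the 4 lower of 5 beside 58.0%. None of the 3 higher calls held with DESeq2's own size factors. The list medians were 1.004, -1.93 and -1.36, beside -0.99, -1.26 and -1.31 over all listed genes.

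Some sets of markers of other marrow cells had the direction of some members, though not in every comparison. Of 17 neutrophil genes, 11 were listed for M-EPCs against F-EPCs, all 11 lower, where 49.3% of all listed genes were. Their summed normalized counts were 176 to 240 in M-EPC libraries against 1284 to 1314, with Cxcr2 and Itgb2l at 0 in all M-EPC libraries. Between F-EPCs and OVX-EPCs 7 of the 8 listed were higher in F-EPCs, with sums of 682 to 785 against 152 to 177, which is the direction of Ly6a and Ly6a2, and 30.8% of all listed genes were called higher. For M-EPCs against OVX-EPCs 6 were listed and lower, with sums of 120 to 187 against 558 to 590, where 58.0% of all listed genes were lower, and 4 of these 6 calls were left with RLE or DESeq2's own factors. Ngp, a neutrophil granule protein gene, was the one listed in every table, at -2.10 for M-EPCs against F-EPCs, -1.05 for M-EPCs against OVX-EPCs and 1.05 for F-EPCs against OVX-EPCs on the log2 scale. Its call between M-EPCs and OVX-EPCs was lost with size factors set on the listed genes. The part of such cells in the Ly6a and Ly6a2 results was not tested. The lineage depletion done before the Sca-1 and CD31 sorts and culture is meant to remove mature blood cells. Which of the lineages described here and below it covers is not given in the sources used here.

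Ly6g6f moved with platelet and basophil genes. All 6 listed of 11 erythroid, megakaryocyte and basophil markers were lower in M-EPCs in both tables, where 49.3% and 58.0% of all listed genes were. Their sums were 989 to 1053 against 5356 to 5717 in F-EPCs, and in the table with OVX-EPCs 1010 to 1077 against 6056 to 6677. Without Pf4, the highest of them, the sums were 57.1 to 81.7 against 1881 to 2117 and 58.4 to 83.6 against 3221 to 3611. Among them the platelet chemokine gene Pf4 was at -1.89 and the platelet integrin gene Itga2b at -4.81 against F-EPCs. In M-EPCs Mcpt8, a basophil protease gene, was at 0 in all libraries. Between F-EPCs and OVX-EPCs Gp9 alone was listed, at -1.01, and its sign turned with size factors set on the listed genes.

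Ly6d was lower in M-EPCs, as were the listed lymphocyte genes. The listed neutrophil, megakaryocyte and dendritic genes had this direction too, so it is not particular to lymphocyte genes. Likeness to single genes was not computed for Ly6d. Of 13 B and T lymphocyte markers, 7 were listed and lower in M-EPCs against F-EPCs, with sums of 42.2 to 44.7 against 220 to 255, and 12 were listed and lower against OVX-EPCs, beside 49.3% and 58.0% of all listed genes. The 12 calls became 10 with RLE or DESeq2's own factors and 11 with TMM. In the table with OVX-EPCs most of the summed count was Cd4, and the sums of the other 11 markers were 207 to 253 against 867 to 967. Between F-EPCs and OVX-EPCs 2 were listed, both lower in F-EPCs, as were 67.3% of all listed genes. Both calls were lost, and 1 changed sign, with size factors set on the listed genes. For Ly6c2, 3 of 13 monocyte and macrophage markers were listed for M-EPCs against F-EPCs, 1 higher and 2 lower in M-EPCs beside 48.4% and 49.3% of all listed genes, and the higher call was lost with RLE or DESeq2's own factors. They had sums of 471 to 553 against 799 to 882 that overlapped once Cx3cr1, the highest, was left out. Between M-EPCs and OVX-EPCs 2 were listed, 1 in each direction, and the sums overlapped. The part of these cell types in the results for Ly6g6f, Ly6d and Ly6c2 was not tested.

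Endothelial, stem and progenitor, dendritic and stromal markers also differed. The counts below stand beside shares over all listed genes of 48.4% higher and 49.3% lower for M-EPCs against F-EPCs, 40.8% and 58.0% for M-EPCs against OVX-EPCs, and 30.8% and 67.3% for F-EPCs against OVX-EPCs. Of 15 endothelial genes 5 were listed for M-EPCs against F-EPCs and 4 for M-EPCs against OVX-EPCs. Among them Esam, Kdr, Tie1 and Vwf were lower in M-EPCs than in both other groups, and Pecam1 was the exception, higher than in F-EPCs and with no row against OVX-EPCs. Of 12 hematopoietic stem and progenitor genes, which are known to be expressed in Sca-1+ marrow cells, 5 were listed and lower in M-EPCs against F-EPCs, with sums of 33.5 to 49.5 against 423 to 507. Against OVX-EPCs 5 of the 6 listed were lower in M-EPCs. Procr, a stem cell receptor gene, was higher in F-EPCs (1.47) and in M-EPCs (1.94) than in OVX-EPCs. Of 11 dendritic cell genes M-EPCs had 4 below F-EPCs and 6 below OVX-EPCs, and F-EPCs had 1 above and 2 below OVX-EPCs, the 2 lower calls being lost and 1 of them changing sign with size factors set on the listed genes. The dendritic genes listed in every table were Ccr7, a chemokine receptor gene, and Siglech, a plasmacytoid marker. Ccr7 was at 2.05 and Siglech at -1.90 for F-EPCs against OVX-EPCs on the log2 scale, and the call of Siglech was among those lost. Of 11 stromal genes M-EPCs had 2 above F-EPCs and 3 below OVX-EPCs, and F-EPCs had 6 below OVX-EPCs. With RLE or DESeq2's own factors the 6 dendritic calls of M-EPCs against OVX-EPCs became 4, the 6 stromal calls of F-EPCs became 4, and the 3 stromal calls of M-EPCs became 2.

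Over the 9 libraries and 729 genes with a mean of at least 50 normalized counts in 2 or more tables, the genes whose log2 values were most like Ly6a were Gm5150 (Pearson's r 0.985), Timeless (0.969), Ms4a4c (0.957), Ifitm3 (0.946) and Ccl9 (0.944). Timeless, a replication fork gene, averaged 284 in M-EPCs, 571 in F-EPCs and 284 in OVX-EPCs, nearly the order and ratio of Ly6a. For Ly6c2 they were Clec2i (0.991), Rai14 (0.990), Tnk2 (0.990), Gapt (0.989) and F2r (0.986). An r of at least 0.9 was reached by 26 genes with Ly6a and by 172 with Ly6c2. The points share libraries and fall into 3 groups, so these values describe the order of the groups.

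Within 1 Mb of Ly6a, 5 genes were listed, 4 of them family members. The other was the noncoding gene Gm39556, whose mean was 42.9 in F-EPCs against 18.1 in OVX-EPCs (normalized counts), a log2 difference of 1.32 beside 1.31 for Ly6a. Between F-EPCs and OVX-EPCs 3 genes were listed there, all higher in F-EPCs, against 30.8% of all listed genes. The 4 listed for M-EPCs against F-EPCs and the 2 for M-EPCs against OVX-EPCs were the family members counted above.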

How the data were processed

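RNA-seq of 9 libraries, 3 per group by the labels, was analysed. Per the labels and methods, the authors mapped reads with HISAT2 and quantified with Cufflinks and Cuffnorm, tested with DESeq, and used build mm10. The deposited signal is a normalized count, reads divided by a size factor set by the authors in each table, for listed genes only. All values gave whole reads (tolerance 0.1). The authors' fold and p-value columns were not used. Size factors of OVX-EPC libraries were chained through those of the M-EPC and F-EPC libraries shared between tables to set the common scale. Both routes differed by at most 0.358%, and the scale carries no test. Limma 3.58.1 in R 4.3.3 was fitted per table, pseudocount 1, mean of at least 1 in either group, Benjamini-Hochberg over the listed genes, after a check on simulated data. edgeR 4.0.16 and DESeq2 1.42.0 on recovered reads, other scalings, filters, pseudocounts, a replicate block and each library left out were alternatives. Intervals are 95%. Those of pooled read ratios cover counting error only, and those of limma fold changes rest on the spread between libraries. Every family gene was named, with the 5 genes most like Ly6a and Ly6c2, list genes found in every table and a few of highest mean. Gm39556, Procr, Irf7, Oas3, Mx1 and other examples outside that rule were chosen after their values were seen. The members and lists were chosen with earlier results of these data known. Sequences are from RefSeq GRCm38.p6 and positions were matched by symbol, as 97.5% to 99.1% of listed symbols occur in GENCODE vM21, though some row names are from a newer annotation.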

Additional observations from a re-analysis of the deposited data

How the results depend on the processing

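Of 175 single-gene values under 16 alternatives per comparison, 173 kept direction and call. The exceptions were both of Ly6a, when a log2 fold change of at least 2 was required: the family count fell from 2 to 1 between F-EPCs and OVX-EPCs and from 5 to 4 between M-EPCs and F-EPCs. A mean of at least 10 removed Ly6a2 from M-EPCs against F-EPCs, leaving 4. Size factors set on the listed genes alone shifted the median gene by 1.12 to 1.13 between F-EPCs and OVX-EPCs, by -0.35 to 0.09 between M-EPCs and F-EPCs and by 0.20 to 0.63 between M-EPCs and OVX-EPCs. Between F-EPCs and OVX-EPCs the share of calls that were higher in F-EPCs then rose from 31.4% to between 63.0% and 67.1%, and the number of genes called fell from 796 to between 380 and 405. Between M-EPCs and F-EPCs the share higher in M-EPCs went from 49.5% to as low as 37.2%, and between M-EPCs and OVX-EPCs from 41.3% to as high as 52.6%. With such factors Ly6a went from 1.31 to 2.44 between F-EPCs and OVX-EPCs. With the authors' size factors, edgeR and DESeq2 called every member, but also nearly every listed gene. Of 2093 genes for M-EPCs against F-EPCs edgeR called 2089. It called 1315 of 1317 for M-EPCs against OVX-EPCs and 810 of 811 for F-EPCs against OVX-EPCs, and DESeq2 called all of them. Ly6a2 between F-EPCs and OVX-EPCs went from 3.14 to 5.52 with a pseudocount of 0.1, to 4.51 and 4.86 with edgeR and DESeq2 on the authors' factors, and to 5.98 with DESeq2's own. Same-numbered libraries did not deviate together (correlations -0.019 to 0.032), so the numbers do not pair them; a fit with the replicate number as a block called the same 5, 4 and 2 members. With 1 library left out, the counts stayed at 5, 4 and 2, although Ly6a in M-EPCs against F-EPCs reached -1.002, at the threshold, without M-EPC replicate 3. Genes with no row were not used, so calls cannot be read as tests across all expressed genes, and at 0 to 8 reads per library the fitted folds of Ly6a2, Ly6d, Ly6g6e and Ly6g6f against their low groups are imprecise. The recounts of the gene lists and markers under other size factors were chosen after seeing the data.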
